A study of Homo sapiens with 70 samples.

Results

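The 41 genes described here encode the proteins that take a cell through G2 and mitosis. They were chosen by gene name from the expected count table, which holds 78932 genes, and all 41 were found and passed the filter on low counts in every fit. By role they are 6 genes for cyclins, CDK1 and its CKS subunits, 6 for CDC25 phosphatases and mitotic kinases, 5 for the spindle checkpoint, 3 for cofactors of the anaphase-promoting complex (APC/C) and securin, 10 for motors and spindle proteins, 5 for the centromere and kinetochore, 3 for cytokinesis and chromosomal passenger proteins, 2 for chromosome proteins (TOP2A and MKI67) and 1 transcription factor (FOXM1). The RNA came from a sotorasib-resistant subline of MIA PaCa-2, a human pancreatic ductal adenocarcinoma line, and sotorasib is a covalent inhibitor of mutant K-Ras. Every group carried inducible dCas9-KRAB, a nuclease-dead Cas9 joined to a repressor domain, and 1 of 3 guide RNAs: sgNS, a control, or sgZBTB11-1 or sgZBTB11-2, which target ZBTB11. Cells received DMSO or doxycycline (DOX), which induces dCas9-KRAB, and were collected at 5 hr, day 1, day 3 and day 5. This gives 24 groups and 70 libraries, with 2 libraries for sgNS with DMSO at day 1 and for sgZBTB11-1 with DMSO at day 5 and 3 in each other group. The sources used here do not say whether the resistant subline is 1 clone or a pool. They also do not say whether a group's libraries are separate cultures, so a p-value covers the spread among libraries alone, and that spread may be technical.

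Entry into mitosis is driven by CDK1 bound to cyclin B, which CDC25 phosphatases switch on by removing inhibitory phosphates. PLK1, the Aurora kinases and NEK2 then act on centrosomes, kinetochores and the spindle, and the spindle checkpoint proteins BUB1, BUB1B, BUB3, MAD2L1 and TTK hold back the APC/C until every chromosome is attached. CDC20 then activates the APC/C, which marks securin (PTTG1) and cyclin B for degradation, and ANLN, ECT2 and BIRC5 serve the division of the cell body. Many of these genes are transcribed together late in the cell cycle through a promoter element called the CHR, bound by MuvB complexes with MYBL2 or FOXM1, and through boxes bound by NF-Y, and their mRNA is a common readout of proliferation.

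The promoters of 5 of the genes are shown because they carry the members with the widest and the narrowest change over culture time and the pattern of motifs that most members share. Each run is the 250 bases before the first RefSeq start site in GRCh38.p14, 5′ to 3′ on the gene's strand. Capitals mark every match to the CHR-type hexamers TTTGAA or TTCGAA and to the NF-Y-type box CCAAT on either strand, so TTCAAA and ATTGG in capitals are the same elements on the other strand. PLK1 (chr16:23678639-23678888, plus strand), CCNB2 (chr15:59104896-59105145, plus strand) and CKS1B (chr1:154974431-154974680, plus strand) had some of the widest ranges over time in DMSO, CKS2 (chr9:89310945-89311194, plus strand) had the narrowest, and CDC25B (chr20:3786701-3786950, plus strand) was lowest at 5 hr.
PLK1: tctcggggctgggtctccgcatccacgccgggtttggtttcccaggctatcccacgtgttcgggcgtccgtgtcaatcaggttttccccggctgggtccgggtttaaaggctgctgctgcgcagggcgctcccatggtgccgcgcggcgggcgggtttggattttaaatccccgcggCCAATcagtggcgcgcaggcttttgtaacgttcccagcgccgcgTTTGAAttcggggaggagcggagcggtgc
CCNB2: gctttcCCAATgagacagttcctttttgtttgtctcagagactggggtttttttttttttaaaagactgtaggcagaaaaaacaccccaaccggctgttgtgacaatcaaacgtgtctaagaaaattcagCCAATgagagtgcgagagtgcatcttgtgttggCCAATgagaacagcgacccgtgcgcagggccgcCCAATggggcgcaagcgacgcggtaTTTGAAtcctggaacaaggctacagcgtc
CKS1B: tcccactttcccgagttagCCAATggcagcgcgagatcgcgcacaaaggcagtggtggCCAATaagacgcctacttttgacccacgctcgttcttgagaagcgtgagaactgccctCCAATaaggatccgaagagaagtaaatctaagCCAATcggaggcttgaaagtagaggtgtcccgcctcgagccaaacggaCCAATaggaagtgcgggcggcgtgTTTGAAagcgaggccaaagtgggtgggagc
CKS2: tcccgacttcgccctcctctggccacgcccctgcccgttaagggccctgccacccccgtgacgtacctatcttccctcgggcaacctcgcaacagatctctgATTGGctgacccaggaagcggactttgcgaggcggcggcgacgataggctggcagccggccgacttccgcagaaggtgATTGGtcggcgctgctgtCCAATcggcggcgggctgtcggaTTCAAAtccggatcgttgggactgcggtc
CDC25B: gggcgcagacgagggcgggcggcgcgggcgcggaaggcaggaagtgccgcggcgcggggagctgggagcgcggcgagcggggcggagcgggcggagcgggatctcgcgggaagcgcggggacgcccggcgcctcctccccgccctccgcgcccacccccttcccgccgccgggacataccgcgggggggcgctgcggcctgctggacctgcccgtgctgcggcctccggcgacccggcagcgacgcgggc

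In PLK1, CCNB2 and CKS2 the hexamer began 29 bases before the start site, and in CKS1B it began 30 bases before it. The position varied among other members, with a hexamer at -194 in TOP2A and at 40 in CENPF relative to the start. The window of CDC25B shown holds no match, while both elements were found in windows of others among its 4 listed starts. The table of RefSeq promoters used here matched 34 of the 41 members, and none was used for AURKA, BUB3, TTK, UBE2C, TPX2, BIRC5 and FOXM1. Over windows of 250 bases before to 50 bases after any listed start, a hexamer was present in 26 of the 34 members (76.5%) against 19.5% of the 27305 gene symbols in the table. The CCAAT box was present in 28 (82.4%) against 39.7%, and both elements in 22 (64.7%) against 7.85%. With the nearest 150 bases alone, the hexamer was found in 73.5% of members against 9.09% of all symbols. The hexamer was found in 9 of 11 genes for condensin, cohesion and separase and in 2 of 25 S phase genes, which are compared with the members further on. The median range of expression over time was 1.81 on the log2 scale in the 26 members with the hexamer and 2.14 in the 8 without it (AURKB, CCNA2, CCNB1, CENPE, KIF20A, KIF2C, NEK2 and PTTG1). The ranges within these sets overlap, at 0.84 to 3.18 and 1.39 to 2.5. Other forms of the CHR were not searched, so this split cannot tell whether the CHR goes with the range. A match is a description of letters, and binding was not measured.

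**Figure D1:**
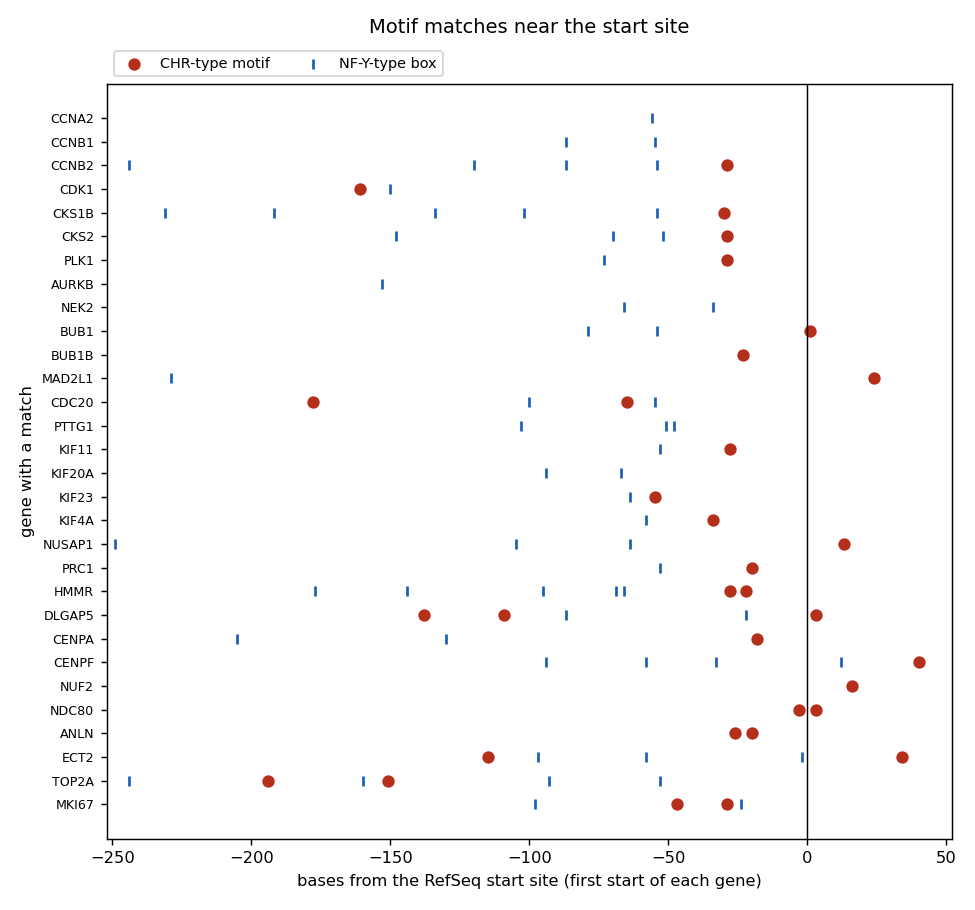
Position of motif matches relative to the first RefSeq start site (x axis, bases; 0 is the start) for each member with a match (y axis); red points are CHR-type hexamers and blue bars are NF-Y-type boxes. Of 33 hexamer matches 18 lie in the 100 bases before the start, and of 59 boxes 39 lie there.

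Total counts per library were 12068842 to 20627642. The share of counts from mitochondrially encoded genes moved with time, with medians over the DMSO libraries that went from 14% at 5 hr to 10.4% at day 1, and then to 18.4% at day 3 and 31.1% by day 5, and its part in the results below was not tested. The keratins KRT8, KRT18 and KRT19 and vimentin (VIM) were found in every library, while EPCAM and KRT7 stayed under 1 TPM (a level scaled by gene length and library size). Of the markers of other cell types, 3 of 6 fibroblast genes (COL1A1, COL1A2 and COL3A1), 1 of 5 immune genes (CD68) and 1 of 4 endothelial genes (CDH5) reached 1 TPM in some library, while PTPRC, CD3E, LYZ, PECAM1, VWF, KDR, DCN, LUM and PDGFRA did not. The summed level over 70 libraries was 97.0 to 212 TPM for the fibroblast list, 0.14 to 7.01 TPM for the immune list and 0.87 to 12.6 TPM for the endothelial list. The 3 fibroblast genes tested rose from 5 hr to day 5, by 0.71 to 1.64 on the log2 scale, and their part in the results was not tested. ZBTB11, the targeted gene, was lower with DOX than with DMSO in both ZBTB11 guides at day 3, with changes of -0.45 (SE 0.057, adjusted p 2.79e-06) and -0.79 (SE 0.056, adjusted p 6.06e-13) on the log2 scale, with the guides in that order. At day 5 the changes were -0.42 (SE 0.064, adjusted p 6.54e-05) and -0.90 (SE 0.059, adjusted p 4.88e-17). With sgNS ZBTB11 was called lower at day 5 too (-0.15, SE 0.052, adjusted p 0.0323), and not at day 3 (-0.058, adjusted p 0.706). At day 1 the changes were -0.28 (adjusted p 0.000773) and -0.59 (adjusted p 1.32e-09) with the ZBTB11 guides and -0.11 (adjusted p 0.402) with sgNS. At 5 hr the same change was -0.0035 (SE 0.045, adjusted p 0.962) with sgZBTB11-1, -0.17 (SE 0.047, adjusted p 0.00723) with sgZBTB11-2 and 0.17 (SE 0.046, adjusted p 0.00297) with sgNS, so the target of the first of these guides was not called lower at that time.

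Nearly all of the genes changed over culture time in DMSO, in the same order. Each time was its own collection, so time cannot be told apart from other differences between collections. From 5 hr to day 1 39 of 41 rose and 0 fell, with a median log2 change of 0.64. From day 1 to day 3 all 41 fell (median -0.92), and from day 3 to day 5 all 41 fell again (median -0.97). At day 5, 39 were lower than at 5 hr (median -1.32) and 2, the phosphatases CDC25B and CDC25C, were higher. Calls are adjusted p-values under 0.05 from edgeR's quasi-likelihood test over the 17598 genes tested, with the 3 guides averaged. Most of the transcriptome changed between times: in these comparisons 34.1% of all genes were called higher at day 1 than at 5 hr and 38.4% lower at day 3 than at day 1. The shares were 34.6% lower at day 5 than at day 3 and 41.6% lower and 44.3% higher at day 5 than at 5 hr. The medians over all genes were 0.015, 0.047, -0.020 and 0.048 in these 4 comparisons. Bulk RNA cannot tell fewer cells in G2 and mitosis from less of each mRNA per such cell. On the TPM scale, tested with limma on log2(TPM + 1), the median over all genes itself moved by 0.13 from 5 hr to day 1 and by -0.18 from day 3 to day 5, and the members' medians of 0.79 and -1.08 are to be read relative to these.

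The spread between libraries was small beside these steps. In all 8 DMSO libraries of day 1 the level of 36 members lay above all 9 libraries of 5 hr, where 11.8% of all genes did so; CKS1B, CKS2, MAD2L1, UBE2C and CENPA overlapped. Every member lay below its day 1 range in all 9 libraries of day 3 (24.7% of all genes), and at day 5, 39 lay below their day 3 range (14.4% of all genes), with CDC25B and ECT2 overlapping. As a summary, the median over the 41 genes of log2 CPM (CPM is the count scaled to library size, with TMM factors over all libraries) minus the gene's mean over the 70 libraries was taken. It ran from 0.24 to 0.31 in the DMSO libraries of 5 hr, from 0.78 to 0.92 at day 1, from -0.14 to -0.04 at day 3 and from -1.098 to -1.003 at day 5. The 41 genes together took a median of 3005 TPM at 5 hr and 4707 TPM at day 1, which became 2809 TPM at day 3 and 1366 TPM by day 5.

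**Figure D2:**
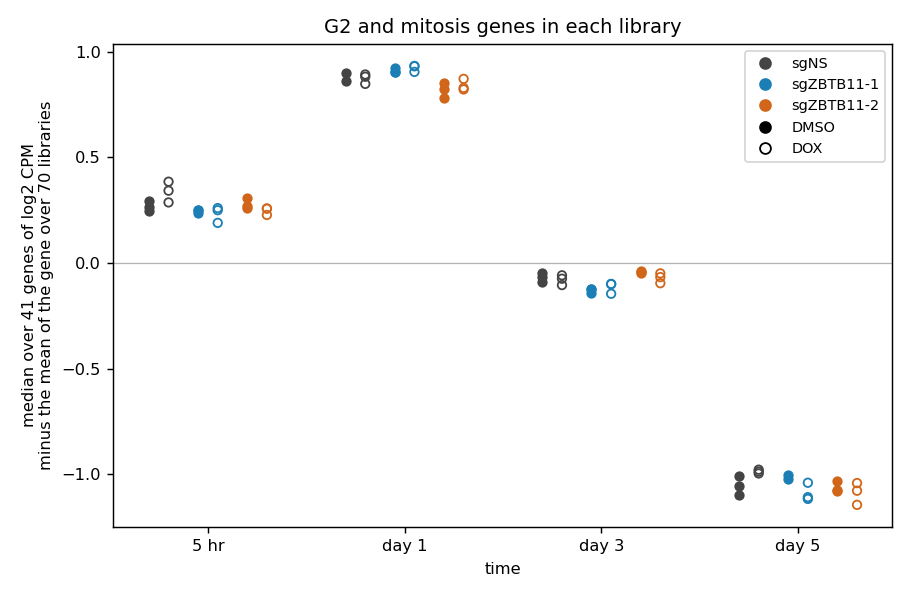
Median over the 41 genes of log2 CPM minus the gene's mean over 70 libraries (y axis) by time (x axis), with 1 point per library; colour is the guide, filled points are DMSO and open points are DOX. The day 1 libraries in DMSO sit between 0.78 and 0.92 and the day 5 libraries between -1.098 and -1.003, and no 2 times overlap.

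The cyclins and CDK1 were highest at day 1 and fell by day 5 to below their 5 hr level. CCNB1, the main mitotic cyclin, had 256 to 319.7 CPM (median 300.1) over the 9 DMSO libraries of 5 hr and 419 to 485 CPM (median 436) at day 1. It had 189 to 235 CPM (median 221) at day 3 and 90.2 to 116 CPM (median 96.5) at day 5. The ranges of the 4 times do not overlap, and from 5 hr to day 5 the change was -1.53 (SE 0.020, adjusted p 1.49e-53). CDK1, the kinase it activates, had 98.1 to 126 CPM (median 109) at 5 hr and 136 to 180.3 CPM (median 166) at day 1. It then stood at 85.5 to 103 CPM (median 93.1) at day 3 and 42.5 to 46.9 CPM (median 45.2) at day 5. Its 5 hr and day 3 libraries overlap. CCNB2 went from 71.2 to 80.8 CPM (median 78.1) at 5 hr to 120.3 to 140.1 CPM (median 133) at day 1, 46.2 to 58.9 CPM (median 53.5) at day 3 and 17.5 to 23.5 CPM (median 21.5) at day 5. CCNA2, the cyclin of S phase and G2, changed by 0.51, -1.24 and -1.26 over the 3 steps.

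The paralogs CKS1B and CKS2, small subunits that bind CDK1, both fell from 5 hr to day 5, by unequal amounts. CKS1B had 107 to 120.0 CPM (median 111) at 5 hr and 115 to 132 CPM (median 123) at day 1. The later levels were 38.4 to 50.1 CPM (median 42.9) at day 3 and 16 to 21.4 CPM (median 20.3) at day 5. This was a change of -2.53 (SE 0.034, adjusted p 2.83e-53) from 5 hr to day 5. CKS2 changed by -0.64 (SE 0.021, adjusted p 3.23e-34) over the same interval, from 224 to 246 CPM (median 233) to 142 to 158 CPM (median 149.6), and had the narrowest range of mean log2 CPM over time of all 41 members, 0.84 against 2.68 for CKS1B. Per length CKS2 was also the most abundant member at day 1, with a median of 648 TPM against 201 TPM for CKS1B. RSEM assigns reads that match several copies of a gene by estimation, so the levels of genes with close copies are uncertain.

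Among the phosphatases and kinases, PLK1 had the widest range over time of all 41 genes and CDC25B and CDC25C stood above their first level at the end. PLK1 (chromosome 16, 23678889 to 23690367 in GRCh38.p14), which acts from mitotic entry to cytokinesis, had 70.2 to 87.4 CPM (median 76.7) at 5 hr and 120.0 to 132 CPM (median 129) at day 1. After that it had 26.6 to 32.9 CPM (median 28.4) at day 3 and 12.7 to 15.2 CPM (median 13.9) at day 5. Its fall between day 1 and day 3, -2.14 (SE 0.027, adjusted p 2.48e-53), was the steepest single step among the members, and its range over time was 3.18 on the log2 scale. NEK2, a centrosome kinase, had 34.2 to 44.3 CPM (median 41.2) at 5 hr and 59.7 to 83.6 CPM (median 74.2) at day 1. It then stood at 35.2 to 42.2 CPM (median 38.9) at day 3 and 14 to 18.1 CPM (median 16) at day 5, and its 5 hr and day 3 libraries overlap. CDC25B, thought to start CDK1 activation at the centrosome, had 111 to 123 CPM (median 115) at 5 hr and 248 to 279.8 CPM (median 259.7) at day 1, and kept 151 to 171 CPM (median 164) at day 5, with no overlap between 5 hr and any later time. Its change from 5 hr to day 5 was 0.48 (SE 0.019, adjusted p 2.22e-30), and it was positive in each guide (sgNS 0.58, sgZBTB11-1 0.34, sgZBTB11-2 0.53). CDC25C rose most of all members to day 1, by 1.48 (SE 0.045, adjusted p 1.54e-34), from 8.81 to 11.9 CPM (median 11.2) to 28.2 to 33.5 CPM (median 29.4). At day 5 it had 10.7 to 12.9 CPM (median 11.8), which overlaps the 5 hr range, and its change of 0.14 (SE 0.055, adjusted p 0.0156) passed the threshold with the guides averaged and in the sgNS libraries (0.27), and not in those of sgZBTB11-1 (0.059) or sgZBTB11-2 (0.10). The Aurora kinases AURKA and AURKB, which act at the spindle poles and at centromeres, changed by -1.42 and -1.11 from 5 hr to day 5.

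The 5 spindle checkpoint genes all fell in both later steps, with changes from 5 hr to day 5 of -0.80 (TTK) to -1.75 (MAD2L1). BUB1, a kinase that recruits the checkpoint to kinetochores, had 49.4 to 55.8 CPM (median 53) at 5 hr and 84.9 to 94.5 CPM (median 87.8) at day 1. The later levels were 36.6 to 42.6 CPM (median 40.5) at day 3 and 16.3 to 21.6 CPM (median 19.2) at day 5, with no overlap between times. MAD2L1, which binds and holds CDC20, had 73 to 88.1 CPM (median 78.9) at 5 hr and 71.6 to 99.95 CPM (median 83.6) at day 1, and these overlap. Its rise to day 1 of 0.12 (SE 0.029, adjusted p 0.000165) passed the threshold with the guides averaged, but in the sgZBTB11-2 libraries it fell, with a change of -0.15 (SE 0.047, adjusted p 0.005).

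CDC20 and PTTG1 rose to day 1 and then fell, while UBE2C was not called higher at day 1. CDC20, the activator of the APC/C, had 105 to 142 CPM (median 121) at 5 hr and 178 to 198 CPM (median 188) at day 1. After that it had 58.1 to 71.9 CPM (median 67.7) at day 3 and 29.4 to 35 CPM (median 32) at day 5. PTTG1, securin, had 139.5 to 187 CPM (median 167) at 5 hr and 191 to 239.5 CPM (median 200.4) at day 1. It then stood at 95.7 to 116 CPM (median 111) at day 3 and 37.4 to 54 CPM (median 43.3) at day 5. No range of these 2 genes overlaps another. UBE2C, the ubiquitin-conjugating enzyme of the APC/C, changed by -0.010 (SE 0.019, adjusted p 0.652) from 5 hr to day 1, where sgNS gave 0.17 and the ZBTB11 guides -0.11 and -0.092, each past the threshold. On the TPM scale it was called higher at day 1, as was CENPA.

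The 10 motors and spindle proteins all rose to day 1, by 0.37 (KIF23) to 1.30 (KIF20A), and all fell in both later steps. DLGAP5, a microtubule-binding protein of the spindle, had 36.4 to 46.6 CPM (median 40.5) at 5 hr and 82.3 to 104 CPM (median 91.9) at day 1. The later levels were 24.1 to 34.6 CPM (median 32.5) at day 3 and 9.35 to 12.7 CPM (median 11.3) at day 5. TPX2, which activates AURKA on the spindle, had 128 to 151 CPM (median 144) at 5 hr and 251 to 276 CPM (median 264) at day 1. After that it had 78.7 to 101 CPM (median 94.5) at day 3 and 37.3 to 43.2 CPM (median 40.5) at day 5. The 4 ranges of either gene do not overlap, and the ranges of their means over time, 3.02 and 2.71 on the log2 scale, were the widest of the group. KIF20A and HMMR, a motor of the central spindle and a spindle pole protein, rose the most and ended at -0.74 and -0.76 against 5 hr.

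The centromere and kinetochore genes, with CENPA as the exception, changed less from 5 hr to day 5 than the median member. CENPE, the kinetochore motor, had 35.5 to 40.6 CPM (median 39.7) at 5 hr and 58.8 to 66.9 CPM (median 62.9) at day 1. It then stood at 33.2 to 43.6 CPM (median 40.7) at day 3 and 16.7 to 23.1 CPM (median 21.8) at day 5, and its 5 hr and day 3 ranges overlap. CENPA, the histone variant that marks centromeres, had 57.4 to 64.6 CPM (median 60.7) at 5 hr and 53 to 66 CPM (median 59.2) at day 1, a change of -0.014 (SE 0.028, adjusted p 0.681), and then fell to 32.5 to 37.6 CPM (median 36.3) and 16.8 to 20.3 CPM (median 18.3). From 5 hr to day 5 it changed by -1.72 (SE 0.035, adjusted p 3.2e-44), against -0.61 for CENPF, -0.56 for NDC80, -0.84 for NUF2 and -0.85 for CENPE.

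Of the cytokinesis and passenger genes BIRC5 (survivin) fell furthest, from 109 to 137 CPM (median 129) at 5 hr and 177 to 200.4 CPM (median 187) at day 1 to 62.3 to 74.4 CPM (median 69) at day 3 and 24.1 to 29.1 CPM (median 26.3) at day 5. ANLN, an anchor of the contractile ring, had 99.9 to 124 CPM (median 110.1) at 5 hr and 171 to 229 CPM (median 206) at day 1. The later levels were 97.6 to 124 CPM (median 109) at day 3 and 49.3 to 54.9 CPM (median 52.4) at day 5, and its 5 hr and day 3 libraries overlap. ECT2, the exchange factor that starts cleavage furrow formation, fell less, with a change of -0.50 from 5 hr to day 5.

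MKI67, the proliferation marker Ki-67, and TOP2A, the topoisomerase that untangles sister chromatids, rose by 0.78 and 0.77 to day 1 and changed by -1.24 and -0.43 from day 1 to day 3. MKI67 had 150.4 to 185 CPM (median 166) at 5 hr and 264 to 296 CPM (median 282) at day 1. After that it had 115 to 125 CPM (median 118) at day 3 and 49.2 to 54.9 CPM (median 54.2) at day 5. This was a change of -1.62 (SE 0.025, adjusted p 4.17e-50) from 5 hr to day 5. TOP2A had 231 to 265 CPM (median 246) at 5 hr and 381 to 466 CPM (median 417) at day 1. It then stood at 301 to 323 CPM (median 311) at day 3 and 137 to 153 CPM (median 147) at day 5. Its day 3 libraries all lay above those of 5 hr, and its change from 5 hr to day 5 was -0.74 (SE 0.021, adjusted p 1.36e-37). On the TPM scale the change of TOP2A from 5 hr to day 5 was -0.044 (adjusted p = 0.354, limma) and that from day 1 to day 3 was -0.067 (adjusted p = 0.161). FOXM1, the transcription factor of late cell cycle genes, had 148 to 162 CPM (median 152) at 5 hr and 189.8 to 223 CPM (median 218) at day 1. The later levels were 92.6 to 113 CPM (median 101) at day 3 and 53.5 to 64.5 CPM (median 58.4) at day 5. Its change from 5 hr to day 5 was -1.36 (SE 0.025, adjusted p 1.33e-46).

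**Figure D3:**
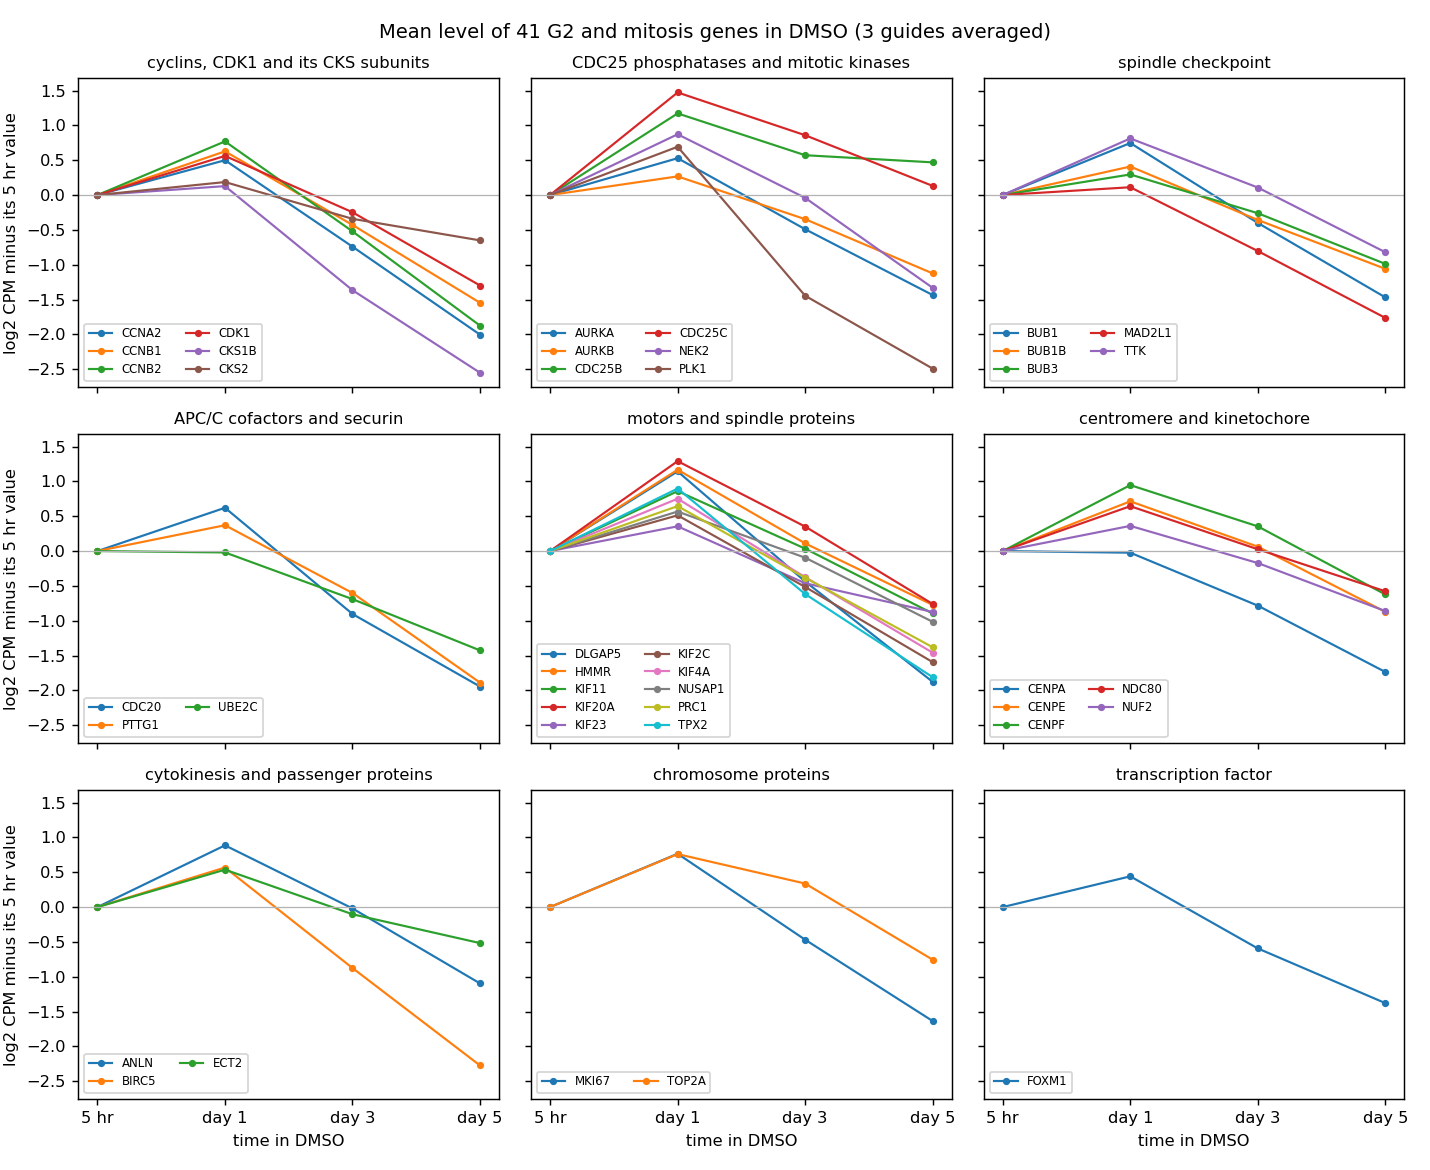
Mean log2 CPM in DMSO minus its 5 hr value (y axis) against time (x axis), averaged over the 3 guides, with 1 panel per role and 1 line per gene. Of 41 lines 37 are highest at day 1 and lowest at day 5; CDC25B and CDC25C stay above 0, and UBE2C and CENPA were not called higher at day 1.

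Most members followed this course with each guide and with DOX in place of DMSO. From 5 hr to day 1 40 members rose in the sgNS libraries (22.6% of all genes), 39 with sgZBTB11-1 (29.4%) and 37 with sgZBTB11-2 (26.1%), where MAD2L1, UBE2C and CENPA fell and CKS1B changed by 0.044 (SE 0.041, adjusted p 0.384). From 5 hr to day 5, 39 fell in each guide (37.9%, 37.1% and 38.4% of all genes). In the DOX libraries, 40 rose from 5 hr to day 1 (33.6% of all genes), and 39 were lower and 2 higher at day 5 than at 5 hr (43.3% of all genes lower).

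**Figure D4:**
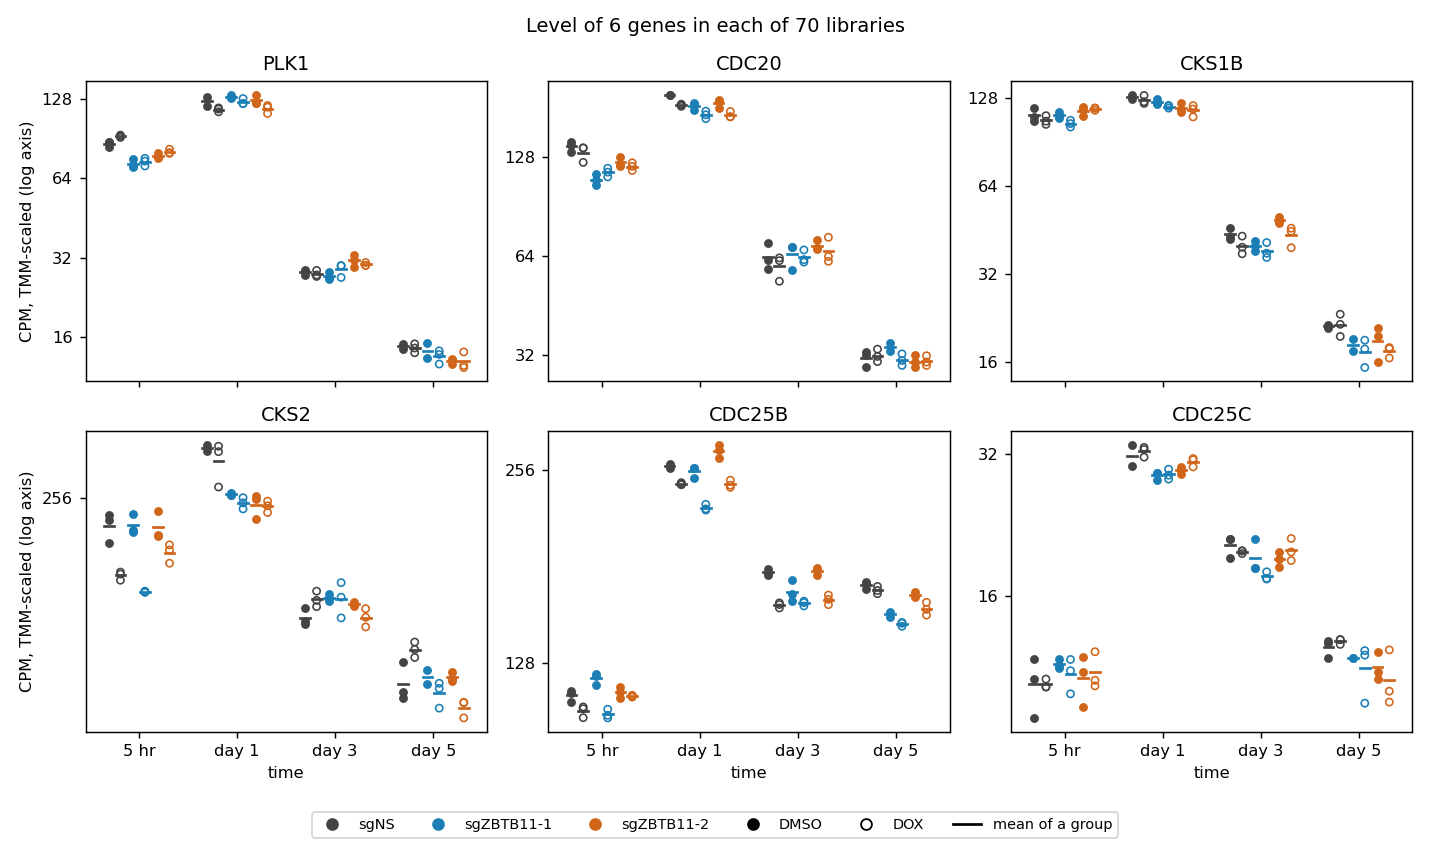
Level in CPM (log axis) by time for 6 members, with 1 point per library; colour is the guide, filled points are DMSO, open points are DOX and bars are group means. Each panel has its own scale; PLK1, CDC20 and CKS1B drop from day 1 to day 5, CKS2 drops less than these, and CDC25B and CDC25C are lowest or near lowest at 5 hr.

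Other genes of the pathway, from lists that hold no member, mostly fell between 5 hr and day 5 as well, where 41.6% of all genes were called lower and 44.3% higher. All 12 genes for condensin, cohesion and separase fell (median -1.05, CDCA5 -1.94, NCAPH -1.37), as did all 9 other regulators of mitotic entry (median -0.98, CDC25A -2.31, PKMYT1 -1.94). Of 37 other checkpoint and kinetochore genes 31 fell and 4 rose (median -0.82, CENPN -2.19, TRIP13 -2.02), and of 29 other spindle, centrosome and cytokinesis genes 24 fell and 3 rose (median -0.85, KIF18B -1.75). The APC/C core and its regulators fell less, 13 of 17 with a median of -0.27, although UBE2S (-2.43) and ANAPC11 (-1.89) fell steeply. Among 9 DREAM and MuvB subunits, the complexes that bind the CHR, 6 fell and 3 rose, with MYBL2 at -1.42. All 30 S phase and replication genes fell too (median -1.45, TYMS -3.02, RRM2 -2.77). From 5 hr to day 1 13 of these S phase genes rose and 10 fell (median 0.029), where 39 of 41 members (median 0.64) and 34.1% of all genes rose. The share of all genes that fell in that step is not given. Cell cycle inhibitors went both ways, with 6 of 8 tested higher at day 5, among them BTG2 (2.87) and CDKN1C (2.08), and GADD45A at -2.51.

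DOX changed fewer members than time did, and by smaller amounts. At 5 hr with sgNS 19 rose and 4 fell, where 40.9% of the 15623 genes tested were called in either direction (median of members 0.077, of all genes -0.003). Shares of all genes in the other DOX and net results also count both directions. They compare with the members called in total, not with those of 1 direction. With sgZBTB11-1 13 rose and 5 fell (32.8% of all genes called, median 0.058), and with sgZBTB11-2 0 rose and 11 fell (17% of all genes called, median -0.075). Of these 0 rises, 1 gene had an unadjusted p under 0.05, and DESeq2 and limma on TPM also called 0. On the TPM scale, where the median of all genes was 0.17 for sgNS and 0.084 for sgZBTB11-1, 34 were higher and 0 lower with sgNS and 20 higher and 2 lower with sgZBTB11-1. The share of all genes called on the TPM scale is not given here, so these counts cannot be set beside it. The count for sgZBTB11-2 was 7 without DMSO replicate 2 and 7 without DOX replicate 3. The libraries also differed in the share of mitochondrially encoded counts, which was 13.7% to 14.3% in DMSO and 11.9% to 12.4% in DOX with sgNS, 14% to 14.1% and 12.2% to 12.4% with sgZBTB11-1, and 12.5% to 12.7% and 13.1% to 13.4% with sgZBTB11-2. That share moved down where the members' median moved up and up where it moved down, and its part in the result was not tested.

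The largest rises at 5 hr with sgNS were those of KIF11, BUB3, HMMR and ANLN. KIF11, the motor that separates the spindle poles, had 59.5, 60.4 and 60.6 CPM in the DMSO libraries and 75.2, 79 and 83.6 CPM in the DOX libraries (log2 change 0.40, SE 0.043, adjusted p 5.38e-10). With sgZBTB11-1 it had 63.2, 63.3 and 65.6 CPM in DMSO against 71.5, 72.7 and 74.1 CPM in DOX, and with sgZBTB11-2 it had 68.9, 72.8 and 75.9 CPM in DMSO against 63.2, 65.7 and 66.3 CPM in DOX. DMSO and DOX libraries do not overlap in any guide, and DOX is the higher in the first pair of guides and the lower in sgZBTB11-2. BUB3, which carries BUB1 to kinetochores, followed the same pattern, with 145, 147 and 151 CPM in DMSO against 187, 192 and 193 CPM in DOX in sgNS (log2 change 0.37, SE 0.033, adjusted p 6.25e-12). It had 169, 170.3 and 182 CPM in DMSO against 152, 155 and 156 CPM in DOX in sgZBTB11-2 (log2 change -0.16, SE 0.033, adjusted p 0.000368). HMMR rose in sgNS from 46.2, 46.5 and 47 CPM in DMSO to 56.9, 58.1 and 59 CPM in DOX (log2 change 0.32, SE 0.045, adjusted p 2.16e-07). ANLN rose there from 99.9, 110.0 and 110.1 CPM in DMSO to 128, 132 and 137 CPM in DOX (log2 change 0.32, SE 0.043, adjusted p 1.47e-07). In sgZBTB11-2 ANLN had 118, 123 and 124 CPM in DMSO against 102, 109 and 114 CPM in DOX, and its call (log2 change -0.16, SE 0.043, adjusted p 0.00558) was lost without DOX replicate 2 (adjusted p = 0.0731).

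Falls at 5 hr were led by AURKB and CKS2 in sgZBTB11-1 and by MAD2L1 and CDK1 in sgZBTB11-2. AURKB had 119.9, 122 and 128 CPM in DMSO against 95, 95.6 and 98.9 CPM in DOX with sgZBTB11-1 (log2 change -0.35, SE 0.036, adjusted p 6.96e-10). It fell in sgNS too (-0.22) and was at 0.10 (SE 0.036, adjusted p 0.055) in sgZBTB11-2. CKS2 was lower with DOX in all 3 guides, with 224, 240.0 and 243 CPM in DMSO against 201, 204 and 206 CPM in DOX in sgNS. It had 231, 233 and 244 CPM in DMSO against 194, 194 and 194 CPM in DOX in sgZBTB11-1. The levels were 229, 229.5 and 246 CPM in DMSO against 211, 219 and 223 CPM in DOX in sgZBTB11-2. Its log2 changes were -0.21, -0.27 and -0.10. UBE2C had 355, 357 and 365 CPM in DMSO against 310.4, 311 and 312 CPM in DOX with sgZBTB11-1 (log2 change -0.20, SE 0.028, adjusted p 4.75e-07), a change of -0.063 with the length trend removed (adjusted p = 0.126). DLGAP5 rose there, from 36.4, 39.6 and 40.5 CPM in DMSO to 39.4, 45 and 48.6 CPM in DOX (log2 change 0.21, SE 0.057, adjusted p 0.00419), with overlapping libraries and an adjusted p of 0.0612 without DOX replicate 2. With sgZBTB11-2, MAD2L1 had 81.6, 86.6 and 88.1 CPM in DMSO against 69.99, 76.3 and 77.4 CPM in DOX (log2 change -0.19, SE 0.045, adjusted p 0.0023). CDK1 had 115, 125 and 126 CPM in DMSO against 103, 107 and 109.6 CPM in DOX (log2 change -0.18, SE 0.047, adjusted p 0.00644). ECT2 had 107, 112 and 113 CPM in DMSO against 95.3, 97.4 and 98.3 CPM in DOX (log2 change -0.18, SE 0.036, adjusted p 0.000333). The libraries of these last 3 genes do not overlap.

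The net change, the mean of both ZBTB11 guides minus sgNS, was called lower at 5 hr for 15 members and higher for 1, PTTG1, where 30% of all genes were called (median of members -0.087, of all genes 0.011). On the TPM scale 29 were lower and 0 higher, against a median of all genes of -0.13, and the share of all genes called there is not given. BUB3 was at -0.40 (SE 0.040, adjusted p 6.36e-10), KIF11 at -0.38 (SE 0.053, adjusted p 3.83e-07), CDK1 at -0.34 (SE 0.058, adjusted p 2.93e-05) and ANLN at -0.33 (SE 0.052, adjusted p 5.01e-06). In each of these genes sgNS rose with DOX, by 0.37, 0.40, 0.30 and 0.32, the sgZBTB11-1 values were 0.11, 0.19, 0.089 and 0.13, and sgZBTB11-2 fell. The 2 ZBTB11 guides thus differed in sign, and the difference between them was not tested.

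Gene length moved with the DOX change at 5 hr. Across the 41 members, which share libraries and depth, Spearman's rho between effective length and the log2 change was 0.507 in sgNS, 0.574 in sgZBTB11-1 and -0.174 in sgZBTB11-2, and across all genes it was 0.412, 0.342 and -0.136. The members that rose in sgNS had a median length of 1.416 times that of the median gene, and the 4 that fell (CKS2, AURKB, UBE2C and PTTG1) of 0.306 times. With the trend on length removed from each library, 20 members were higher and 3 lower in sgNS, of which 17 were calls of the same sign as before, and 0 were higher and 14 lower in sgZBTB11-2. Shares of all genes called with this trend removed are not given here. For the change from 5 hr to day 1 in DMSO rho was 0.583 across members and 0.171 across all genes.

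Little passed the threshold at days 1 and 3. At day 1 the calls were 1 higher and 1 lower with sgNS (2.19% of all genes called), 1 lower with sgZBTB11-1 (4.84%), 4 higher and 2 lower with sgZBTB11-2 (7.88%) and 0 net of sgNS (0.0737%). Of the net changes 2 were higher and 2 lower at an unadjusted p under 0.05, and edgeR, DESeq2 and limma each called 0. At day 3 they were 1 lower with sgNS (0.877%), 0 with sgZBTB11-1 (0.733%), 1 lower with sgZBTB11-2 (1.17%) and 0 net (0.493%). At an unadjusted p under 0.05 edgeR had 8 higher and 0 lower with sgZBTB11-1 and 2 higher and 1 lower net, and DESeq2 and limma called 0 in both. The share of all genes under the unadjusted threshold is not given, so the unadjusted counts at days 1 and 3 cannot be set beside it. The largest net change of a member at these times was 0.17 on the log2 scale.

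The phosphatase CDC25B accounts for both single calls at day 3 and for the call of sgZBTB11-1 at day 1. At day 1 it had 258 and 261 CPM in DMSO against 243, 243 and 244 CPM in DOX with sgNS (log2 change -0.10, SE 0.030, adjusted p 0.0566). It had 248, 258 and 258 CPM in DMSO against 222, 222 and 226 CPM in DOX with sgZBTB11-1 (log2 change -0.19, SE 0.027, adjusted p 9.72e-06). It had 267, 275 and 279.8 CPM in DMSO against 240.4, 242 and 247 CPM in DOX with sgZBTB11-2 (log2 change -0.18, SE 0.027, adjusted p 2.02e-05). DOX lay below DMSO without overlap in every guide, the control included. At day 3 it had 176, 177 and 179 CPM in DMSO against 156, 158 and 159 CPM in DOX with sgNS (log2 change -0.16, SE 0.032, adjusted p 0.00422). The levels were 175, 178 and 179.7 CPM in DMSO against 158, 161 and 163 CPM in DOX with sgZBTB11-2 (log2 change -0.13, SE 0.031, adjusted p 0.018). With sgZBTB11-1 CDC25B was not called at day 3. The call of sgZBTB11-2 at day 3 was lost without any 1 of its DMSO libraries or without DOX replicate 3 (adjusted p up to 0.139).

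With sgNS at day 1, UBE2C had 359 and 365 CPM in DMSO against 337, 338 and 339 CPM in DOX (log2 change -0.11, SE 0.029, adjusted p 0.033). KIF20A had 246 and 248 CPM in DMSO against 267, 271 and 274 CPM in DOX (log2 change 0.12, SE 0.033, adjusted p 0.0447). Neither call held without any 1 of the 5 libraries. With sgZBTB11-2, CDK1 rose from 136, 149 and 158 CPM in DMSO to 164, 167 and 168 CPM in DOX (log2 change 0.17, SE 0.035, adjusted p 0.00202), and leaving out any 1 library did not end this call (adjusted p up to 0.0338). MAD2L1 rose from 71.6, 75.4 and 80.05 CPM in DMSO to 81.1, 84.8 and 88.1 CPM in DOX (log2 change 0.15, SE 0.039, adjusted p 0.00993). ANLN rose from 171, 197 and 199 CPM in DMSO to 199, 214 and 217 CPM in DOX (log2 change 0.15, SE 0.038, adjusted p 0.0151). The call of MAD2L1 was lost without DMSO replicate 2 (adjusted p 0.0856) or DOX replicate 1 (0.0847), and that of ANLN without DMSO replicate 2 (0.126), DOX replicate 1 (0.0744) or DOX replicate 3 (0.101). CDK1, MAD2L1 and ANLN had fallen with DOX in the same guide at 5 hr. This guide's count of 6 became 3 without DMSO replicate 2, DOX replicate 1 or DOX replicate 3, and 10 without DMSO replicate 1.

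At day 5 with sgNS 4 members rose and 3 fell (17.3% of all genes called, median of members -0.002), and with sgZBTB11-2 0 rose and 6 fell (9%, median -0.075; 0 higher also at an unadjusted p under 0.05 and by DESeq2 and limma). With sgZBTB11-1 0 were called (1.14%, median -0.058; 0 higher and 6 lower unadjusted, and 0 by DESeq2 and by limma). Shares of all genes under the unadjusted threshold are not given. Net of sgNS 5 were lower and 1, TOP2A, higher (19.2% of all genes called, median -0.052). Both with sgNS and net of sgNS, members were called no more often than all genes were. The directions at day 5 turned on the scaling: on the TPM scale 0 members were higher and 22 lower with sgNS, 0 were called with sgZBTB11-2, and 15 were higher and 0 lower net, where the median of all genes was -0.16 with sgNS and 0.19 net and that of the members -0.20 and 0.17. The members' medians on that scale thus lay near those of all genes, and the share of all genes called there is not given. The share of mitochondrially encoded counts was 26% to 26.4% in DMSO and 29.4% to 29.8% in DOX with sgNS, 33.6% to 33.7% and 32.8% to 33.1% with sgZBTB11-1, and 31% to 31.5% and 31.4% to 31.5% with sgZBTB11-2, and its part in the result was not tested.

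DLGAP5 had the largest change at day 5, at low counts, with 10.1, 11.3 and 11.7 CPM in DMSO against 13.4, 16 and 16.8 CPM in DOX with sgNS (log2 change 0.46, SE 0.096, adjusted p 0.000282). It had 11.1 and 12.6 CPM in DMSO against 9.04, 9.88 and 10.5 CPM in DOX with sgZBTB11-1. The levels were 9.35, 11.3 and 12.7 CPM in DMSO against 9.65, 10.1 and 10.5 CPM in DOX with sgZBTB11-2. Its net change was -0.66 (SE 0.12, adjusted p 4.79e-05), or -0.31 on the TPM scale (adjusted p = 0.0509, limma), where its sgNS change was 0.19 (adjusted p = 0.133). The TPM values of DLGAP5 are to be read relative to the medians of all genes given above. KIF23, the central spindle motor, rose in sgNS from 55.2, 55.9 and 59 CPM in DMSO to 60.6, 66.8 and 68.5 CPM in DOX (log2 change 0.18, SE 0.045, adjusted p 0.00294). It fell in sgZBTB11-2 from 64.2, 65.4 and 68.4 CPM in DMSO to 57.9, 57.9 and 57.9 CPM in DOX (log2 change -0.19, SE 0.045, adjusted p 0.00233), and neither pair of groups overlaps. Its rise in sgNS had an adjusted p of 0.0596 without DOX replicate 1, and on the TPM scale its sgNS and net changes had the other sign. On that scale the sgNS change of KIF23 lay above the median of all genes given above, and its net change lay below it. TPX2 had 37.4, 41.5 and 43.2 CPM in DMSO against 44.2, 46.7 and 48.6 CPM in DOX with sgNS (log2 change 0.17, SE 0.057, adjusted p 0.0277). This call was lost without DMSO replicate 3, DOX replicate 1 or DOX replicate 2, and the change had the other sign on the TPM scale. There too the sgNS change of TPX2 lay above the median of all genes. BUB3, which rose at 5 hr, fell at day 5 in sgNS, from 83, 85.6 and 86.4 CPM in DMSO to 75, 76.9 and 79.7 CPM in DOX (log2 change -0.16, SE 0.039, adjusted p 0.00127). The count of 7 for sgNS became 4 without DOX replicate 1.

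With sgZBTB11-2 at day 5, CENPA had 17.9, 18.5 and 20.3 CPM in DMSO against 14.8, 15.4 and 15.8 CPM in DOX (log2 change -0.30, SE 0.075, adjusted p 0.00493), against 17.1, 18.1 and 18.9 CPM in DMSO against 20.5, 20.6 and 20.8 CPM in DOX with sgNS. Its adjusted p was 0.0607 without DMSO replicate 2, and its net change of -0.33 was -0.013 on the TPM scale. That value lay below the net median of all genes on the TPM scale, which was positive. ECT2 fell from 75.3, 78.4 and 84.4 CPM in DMSO to 63.8, 64.6 and 68.3 CPM in DOX (log2 change -0.28, SE 0.051, adjusted p 0.000197), with no overlap, while with sgZBTB11-1 it had 65.6 and 69.5 CPM in DMSO against 63.1, 66.9 and 69.6 CPM in DOX. MAD2L1 had 22.3, 24.5 and 27.2 CPM in DMSO against 18.2, 21.3 and 21.8 CPM in DOX (log2 change -0.26, SE 0.081, adjusted p 0.0325). This call was lost without DMSO replicate 2, DMSO replicate 3 or DOX replicate 2 (adjusted p up to 0.221).

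**Figure D5:**
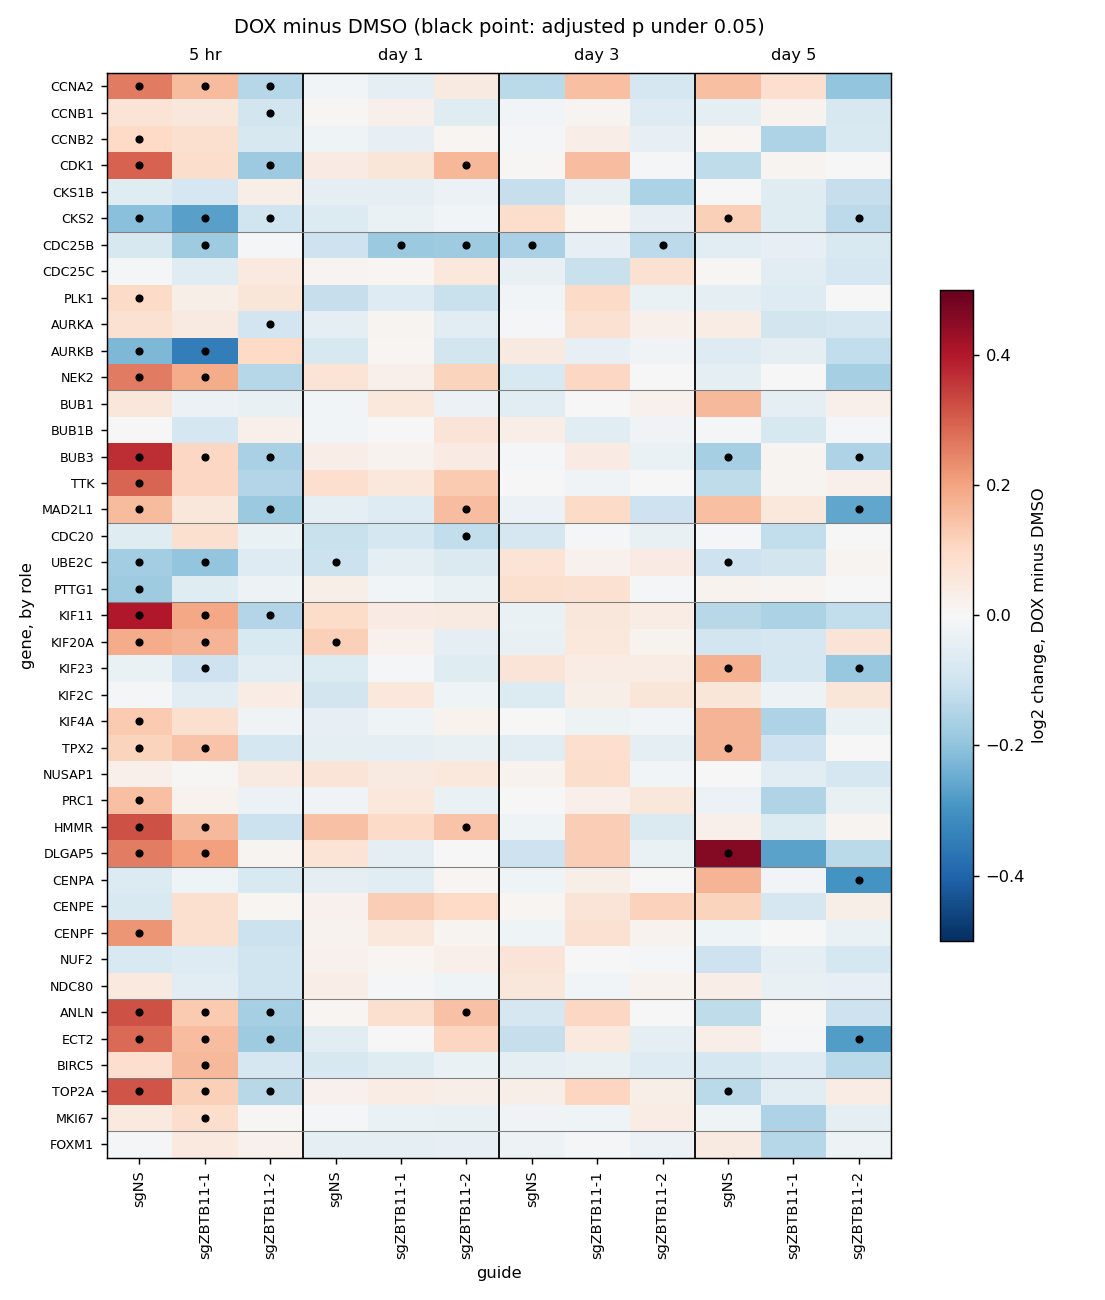
Log2 change with DOX against DMSO (colour, -0.5 to 0.5) for the 41 genes, ordered by role (rows), in 3 guides at 4 times (columns); a black point marks an adjusted p under 0.05. The sgNS column at 5 hr holds 19 red and 4 blue calls and the sgZBTB11-2 column 11 blue calls, while days 1 and 3 hold few.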

How the data were processed

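RNA-seq was made from polyA libraries of total RNA, read as paired 75-base reads. The authors deposited expected counts and TPM per gene and library, made with RSEM on GRCh38.p14, per the submitters' processing notes. The aligner, annotation, RSEM version and strand use were not given in the sources used here. With strand use unknown, overlapping antisense genes cannot be told apart, and KIF4A can share reads with a near-identical copy, so its values are uncertain. A marker in the immune list is not reported here by name.

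Expected counts (5.13% of values not whole) were rounded. Groups came from the sample labels. edgeR 4.0.16 in R 4.3.3 was used (filterByExpr, TMM, quasi-likelihood test, Benjamini-Hochberg adjustment over all genes tested, threshold 0.05), with DMSO libraries of all times in 1 fit and each time's DMSO and DOX libraries in another. The net change is the mean DOX change of both ZBTB11 guides minus that of sgNS. It and the guides share libraries, so they are not independent. Standard errors are those of the fitted log2 changes. Values by library are given for the 2 members per role with the widest range over time in DMSO, for CCNB1, CDK1, MKI67, TOP2A and FOXM1, and for the 4 members with the largest change among those called in each DOX or net result; the time values of CKS2, CDC25B and CDC25C were added after they were seen. Of each pathway list the 3 genes with the largest called change could be named. Members, lists and tests were chosen with earlier results of these data known.

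Alternatives were DESeq2 1.42.0, limma 3.58.1 on the deposited TPM as log2(TPM + 1) for genes of at least 1 TPM in 3 libraries, RLE scaling, no filter on low counts, removal of a trend on gene length, a replicate block, 1 fit of all 70 libraries, and leaving out each library. The test was checked on simulated data. Libraries of a group differed beyond counting noise (chi-square per degree of freedom 1.33 to 4.93 over 68 pairs), and no pair was identical. Total counts of 12068842 to 20627642 set the precision. Promoter sequences are from RefSeq.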

Additional observations from a re-analysis of the deposited data

Results flagged for a closer look

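For 22 results the DOX change of the ZBTB11 guides, averaged, differed from that of sgNS by the edgeR test of the difference itself (adjusted p under 0.05). At 5 hr 16 members differed, where 30% of all genes did. The differences were -0.40 for BUB3, -0.38 for KIF11, -0.34 for CDK1, -0.33 for ANLN, -0.32 for TOP2A, -0.31 for TTK, -0.30 for ECT2, -0.29 for HMMR, -0.25 for CCNA2, -0.24 for NEK2, -0.23 for CENPF, -0.22 for MAD2L1, -0.16 for PRC1, -0.14 for KIF20A, -0.12 for NDC80 and 0.14 for PTTG1, all on the log2 scale. Each rests on sgNS as the shared control. For BUB3, KIF11, CDK1 and ANLN the averaged guides differed in sign, as given above, and the difference between them was not tested.

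At day 5, 6 members differed, by -0.66 for DLGAP5, -0.33 for CENPA, -0.32 for KIF23, -0.22 for TPX2, -0.22 for CKS2 and 0.12 for TOP2A, where 19.2% of all genes differed. That is a smaller share of the members than of all genes. On the TPM scale (limma) 15 members were higher and 0 lower, with KIF23 at 0.048, TPX2 at 0.033 and CENPA at -0.013. The net median of all genes there was positive too and near that of the members, and KIF23, TPX2 and CENPA lay below it. The share of all genes called on that scale is not given. The difference of TPX2 was no longer past the threshold without any 1 of 5 libraries, which were sgNS DMSO replicate 3 (adjusted p = 0.154), sgNS DOX replicates 1 (0.0626) and 2 (0.0667), sgZBTB11-1 DMSO replicate 1 (0.0574) and sgZBTB11-2 DOX replicate 1 (0.0547).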

How the results depend on the processing

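The time counts kept within 1.5 times their value under every alternative run. With limma on TPM, the net count was 29 at 5 hr (edgeR 16) and 15 at day 5 (edgeR 6), the sgNS count at day 5 was 22 (edgeR 7), and the sgZBTB11-2 counts were 2 at day 1 (edgeR 6), 0 at day 3 (edgeR 1) and 0 at day 5 (edgeR 6). The sgNS count at day 1 was 2 with edgeR, 0 with DESeq2, 0 with limma, 1 with no filter, 5 with the length trend removed, 1 with the replicate block and 0 with the replicate block by library name. With the length trend removed the count was 2 for sgZBTB11-1 at day 1 (edgeR 1), 1 for sgZBTB11-1 at day 3 (edgeR 0) and 10 for net at day 5, and with no filter it was 1 for sgZBTB11-1 at day 3. The cause of these differences was not tested, and shares of all genes called are not given for the alternatives.

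Leaving out 1 library gave counts of 7 to 12 for sgZBTB11-2 at 5 hr, 3 to 10 at day 1 and 0 to 1 at day 3, 0 to 0 for sgNS at day 1, 1 to 2 at day 3 (2 without DMSO replicate 1) and 4 to 7 at day 5, and 0 to 1 for net at day 3 (1 without sgNS DMSO replicate 1). Signs turned with limma on TPM for KIF23 (sgNS at day 5 -0.032, net 0.048) and TPX2 (sgNS -0.036, net 0.033). On that scale the medians of all genes moved the same way and further. Relative to those medians, the values of KIF23 and TPX2 kept their edgeR sign. The rise of MAD2L1 from 5 hr to day 1, averaged over guides, was a fall in a fit of the sgZBTB11-2 libraries alone (-0.16, edgeR). Of the values of named genes, 257 DOX or net values kept their call and 42 lost it, and 896 time values kept it and 3 lost it.

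Replicate numbers did not pair the libraries: over 34 checks the correlation of deviations was -0.0414 to 0.1075 (median 0.001). The replicate block moved no other count by over 1.5 times. Depth limits the low genes most, such as DLGAP5 at day 5. Bulk RNA, 2 or 3 libraries per group, unknown culture origin and an unknown strand setting limit all results.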
